A study of Homo sapiens with 8 samples.

Results

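The splicing of JSL1 cells depleted of CELF2 was set against that of control JSL1 cells, both treated with the phorbol ester PMA, an activator of protein kinase C. JSL1 is 1 clone of Jurkat, a line of human T lymphocytes, so the values describe a single clone. Depleted cells carried short hairpin RNAs against CELF2, delivered by stable lentiviral transfection, and both groups received 20 ng/mL of PMA for 48 hours. Each group had 2 libraries of strand-specific polyadenylated RNA, and the same 2 kinds of cells were also sequenced without PMA, so that the study held 8 libraries in 4 groups of 2. The sources used here do not say what hairpin, if any, the control cells held. The hairpins were inducible by doxycycline, and its use in control cells is likewise not given.

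The members are local splicing variations (LSVs), each a set of junctions, with or without a retained intron, that leave or enter the same exon. Every LSV of the authors' table of PMA-treated cells was taken, 91729 in 11039 genes, of 95692 listed in either state. Each junction or intron of an LSV has a share, its estimated percentage of the LSV in a group, and the size of a difference is given in percentage points, depleted minus control. The authors' shares pool both libraries of a group, so the spread between libraries and the number of reads are unknown, no test between the groups was possible, and no value below has a standard deviation. The tables give the posterior probability that a share differed by at least 20 points. Forms are said to rise, fall or change only where that probability was at least 0.95. For each event it is the highest value over the junctions of its LSVs, and need not be that of the form named. It is the authors' own measure of error and not a p-value. A share in bulk RNA does not tell whether all cells or some of them spliced a transcript differently, and fewer transcripts of 1 form cannot be told apart from more of the other.

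CELF2 is an RNA-binding protein of the CUGBP and ETR-3-like family. It binds UG-rich stretches of pre-mRNA, mostly in the introns beside regulated exons, and can promote either inclusion or skipping of an exon depending on where it binds. In T cells its amount is known to increase when the cells are activated, and it takes part in the splicing changes of activated Jurkat cells. The title of the study states the aim of finding functional targets of CELF2 in T cells.

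The label of a T lymphocyte was checked by the genes that have LSVs in the table, since expression values are not part of it. Of 17 T cell genes 13 were listed, among them CD3E, CD247, LCK, ZAP70 and LAT. Of the genes of other cell types, 2 of 6 B cell genes (CD79A and BLK), 1 of 7 myeloid genes (CD68), 1 of 4 fibroblast genes (PDGFRB), 0 of 4 epithelial and 0 of 4 erythroid genes were listed. A listing shows only that spliced reads of the gene were quantified, and the part of such cells in the results was not tested. The depletion itself could not be checked at the level of CELF2 RNA.

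The exons below are examples of short coding exons whose inclusion changed, chosen after their values were seen. Their sequences were read from GENCODE 29 transcripts (GRCh38), matched by gene identifier and by the lengths of the exon and of the introns read on either side of it, and their positions are on hg19 as in the deposited tables. Capitals mark the cassette exon, and the lower-case letters are the 15 bases of the neighbouring exon on each side. The first 3 had higher inclusion in depleted cells and the next 4 lower.
UGGT1, chr2:128913966-128913989, plus strand: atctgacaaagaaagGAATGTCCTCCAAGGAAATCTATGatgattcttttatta
APBB2, chr4:40937094-40937156, minus strand: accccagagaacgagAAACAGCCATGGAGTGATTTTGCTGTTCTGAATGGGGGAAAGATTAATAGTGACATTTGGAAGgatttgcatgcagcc
MALT1, chr18:56378153-56378185, plus strand: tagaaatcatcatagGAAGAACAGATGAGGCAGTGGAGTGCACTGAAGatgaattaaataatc
GOLGA2, chr9:131029473-131029553, minus strand: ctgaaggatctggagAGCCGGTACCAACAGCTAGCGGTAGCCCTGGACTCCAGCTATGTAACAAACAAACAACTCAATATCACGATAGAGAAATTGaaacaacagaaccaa
MYO5A, chr15:52630007-52630081, minus strand: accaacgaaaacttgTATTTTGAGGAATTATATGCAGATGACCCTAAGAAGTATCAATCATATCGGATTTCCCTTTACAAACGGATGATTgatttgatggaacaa
OCRL, chrX:128718321-128718344, plus strand: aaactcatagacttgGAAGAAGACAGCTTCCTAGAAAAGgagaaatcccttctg
SUPT5H, chr19:39948934-39948945, plus strand: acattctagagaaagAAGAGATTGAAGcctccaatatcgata

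These 7 exons are 12 to 81 nucleotides long, and each has a length that is a multiple of 3 (24, 63, 33, 81, 75, 24 and 12 nucleotides), so that skipping leaves the reading frame intact. A pair of related genes is shown for another reason. SYNE2 and SYNE1 encode nesprins, giant proteins that tie the nuclear envelope to the cytoskeleton, and in both an exon of 69 nucleotides changed. The pair was picked after its values were seen.
SYNE2, chr14:64682004-64682072, plus strand: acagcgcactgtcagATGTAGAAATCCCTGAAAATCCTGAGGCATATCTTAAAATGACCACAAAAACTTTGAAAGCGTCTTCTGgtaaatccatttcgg
SYNE1, chr6:152466622-152466690, minus strand: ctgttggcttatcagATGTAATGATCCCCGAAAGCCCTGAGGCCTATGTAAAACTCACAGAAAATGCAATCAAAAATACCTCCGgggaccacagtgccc
Set side by side without gaps, the exons of SYNE2 and SYNE1 have the same base at 44 of 69 places (63.8%). Inclusion of the SYNE2 exon was 67% in depleted and 12.1% in control cells. That of the SYNE1 exon was 62.3% in depleted and 29.2% in control cells. Both exons were thus more often included in depleted cells, by 54.9 and 33.1 points. SYNE1 had another exon that rose, of 59 nucleotides, with 85.0% in depleted and 60.1% in control cells, and its length is not a multiple of 3.

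In depleted cells most LSVs stood close to their control value. The median of the largest difference per LSV was 0.8 points, the 95th percentile was 18.6 points and the largest was 90.2 points. With 1 LSV per gene, the first by position so that the choice did not use the change, 478 of 11039 genes differed by at least 20 points (4.33%), 163 by at least 30 points (1.48%) and 21 by at least 50 points (0.19%). Counted over LSVs, 3880 of 91729 passed 20 points (4.23%), 1214 passed 30 points (1.32%) and 157 passed 50 points (0.171%). Taking any LSV of a gene, 2383 genes (21.6%) passed 20 points, 879 (7.96%) passed 30 points and 127 (1.15%) passed 50 points. The first LSV of CRYBG3, with 86.0% in depleted and 66.0% in control cells, lay just inside 20 points, and that of QTRTD1, with 49.1% in depleted and 29.2% in control cells, lay just outside.

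The share of LSVs with a posterior of at least 0.95 rose with the size. This follows from its definition, since the posterior is for a difference of at least 20 points. It does not measure how precise a larger size is. Of 2666 LSVs that differed by 20 to 30 points, 568 (21.3%) had a posterior probability of at least 0.95. The share was 91.6% from 30 to 40 points (741 of 809), 99.6% from 40 to 50 points (247 of 248) and 100% above that (157 of 157). A difference of 20 to 30 points is therefore, in most LSVs, not separated from a smaller one by the authors' model, and 1713 LSVs (1.87%) in 1165 genes (10.6%) passed both criteria. Without PMA, depleted and control cells differed by at least 20 points in 2529 of 91480 LSVs (2.76%), and 901 (0.985%) in 680 of 10965 genes (6.2%) also had the posterior of at least 0.95. The tables of the 2 states were quantified separately and their difference was not tested.

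Event classes were built from the junctions, and within each class 1 event per gene, the first by position, was counted. Depleted and control cells differed by at least 20 points in 647 of 9067 genes with an LSV of 3 or more forms (7.14%), in 199 of 4661 genes with a retained intron (4.27%), in 103 of 4034 with a cassette exon seen from both of its neighbours (2.55%), in 31 of 2500 with an alternative 3′ splice site (1.24%) and in 19 of 1705 with an alternative 5′ splice site (1.11%). The order stayed the same for the first 3 classes at 30 points, where 220 genes with 3 or more forms (2.43%), 75 with an intron (1.61%) and 30 with a cassette exon (0.744%) passed. LSVs with more forms passed 20 points more often, in 5.63% of genes with 3 forms, 8.0% with 4 and 10.2% with 5 or more, counted for the first such LSV of a gene. An LSV of several forms has several chances to pass, since its largest difference is counted.

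**Figure D1:**
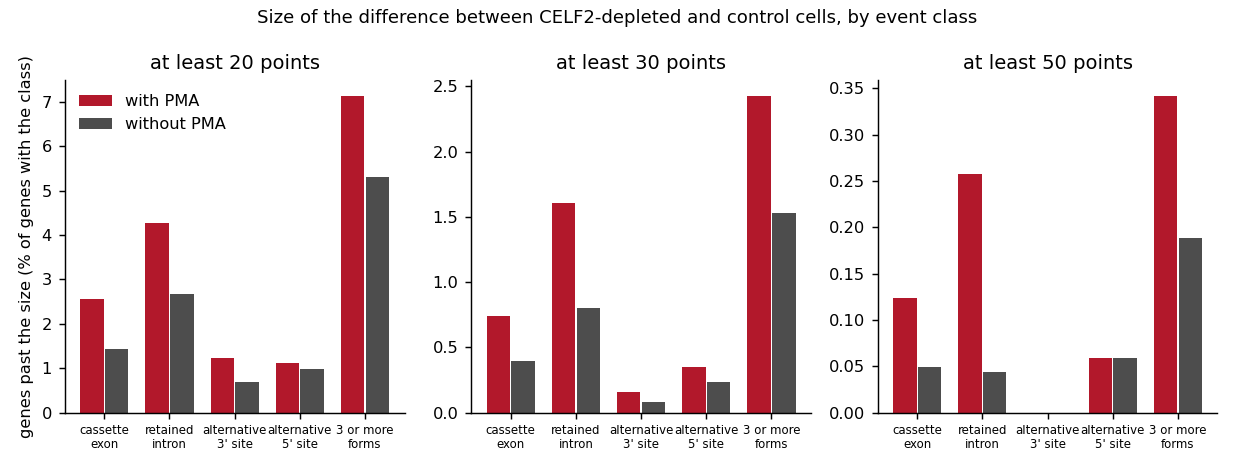
Share of genes whose first event of a class by position differed between CELF2-depleted and control cells by at least 20, 30 or 50 percentage points, as a percentage of the genes with that class, with PMA (red) and without PMA (grey); each panel has its own vertical scale starting at 0. At 20 points the share with PMA was 7.14% for LSVs of 3 or more forms, 4.27% for introns and 2.55% for cassette exons, against 1.24% and 1.11% for alternative 3′ and 5′ sites.

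Among cassette exons past 20 points, more had lower than higher inclusion in depleted cells. An exon near full inclusion in control cells can pass 20 points only downward. Median control inclusion was 97.1% over 6792 genes in the wider set of annotated cassette exons described below. The part of this limit in the direction was not tested. Of the 103 genes past 20 points, inclusion was lower in depleted cells in 62 (1.54%) and higher in 41 (1.02%), and of the 87 exons of this class (1.43% of 6084) with a posterior of at least 0.95, counted without the limit of 1 per gene, 52 fell (0.855%) and 35 rose (0.575%). At 30 points the counts were 16 lower (0.397%) and 14 higher (0.347%), and at 50 points 1 lower (0.0248%) and 4 higher (0.0992%). The 2 measurements of an exon, from the LSV of the exon before it and from that of the exon after it, share the skipping junction and are not independent. Their differences had a Pearson r of 0.856 over 6084 exons, given as a description, and in the 226 exons where either passed 20 points the median gap between them was 6.0 points.

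Among the rises with a posterior of at least 0.95, UGGT1, the endoplasmic reticulum enzyme that marks misfolded glycoproteins for another round of folding, included its 24-nucleotide exon at 83.8% in depleted and 20.4% in control cells. APBB2, an adaptor that binds the tail of amyloid precursor proteins, had 81.2% in depleted and 18.2% in control cells. In both, the exon also rose without PMA, to 64.0% in depleted cells against 29% in control cells for UGGT1 and to 67.9% against 19.0% for APBB2. The 144-nucleotide exon of PITPNM2, a membrane-associated phosphatidylinositol transfer protein, had 60.2% in depleted and 2.8% in control cells. ZNF248, a zinc finger gene, had 95.1% in depleted and 35.1% in control cells at an exon of 81 nucleotides.

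SLMAP, a tail-anchored membrane protein of the STRIPAK phosphatase complex, differed by 60.5 points with PMA and by -4.6 points without PMA. Its 90-nucleotide exon had 83.3% in depleted and 22.8% in control cells with PMA, and 84.1% in depleted and 88.7% in control cells without PMA. The value that stands apart among these 4 is thus that of control cells with PMA. Whether the depletion differences of the 2 states differ was not tested.

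Falls were led by GOLGA2, the cis-Golgi matrix protein GM130, whose 81-nucleotide exon had 11.8% in depleted and 65.5% in control cells. ADD3, gamma-adducin, which caps actin filaments and joins them to spectrin, had 37.8% in depleted and 84.9% in control cells at an exon of 96 nucleotides. In ACIN1, an RNA-binding protein tied to the exon junction complex, the 120-nucleotide exon had 36.7% in depleted and 76.9% in control cells. Each of these 3 exons was also lower in depleted cells without PMA, at 20.8% against 59.9% in control cells for GOLGA2, 51.5% against 75.7% for ADD3 and 36.2% against 52.2% for ACIN1, and of these only the GOLGA2 difference had a posterior of at least 0.95. MYO5A, the motor protein myosin Va, had 56.0% in depleted and 94.0% in control cells. NEK1, a kinase of cilia and DNA repair, had 50.1% in depleted and 88.1% in control cells, and SNHG14, a noncoding host transcript of small nucleolar RNAs, had 23.7% in depleted and 63.0% in control cells.

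A wider set of cassette exons, seen from 1 side or both, was matched to exons of GENCODE 29, which adds length, frame and coding status. It held 13770 exons in 6792 genes, of which 365 (2.65%) differed by at least 20 points, 204 lower and 161 higher in depleted cells, and 175 also had a posterior of at least 0.95, with 92 lower and 83 higher. At 30 points the direction turned, with 56 lower and 69 higher of 125 exons (0.908%). The share past 20 points varied with the control level. Of 5030 genes with an exon at 95% or more in control cells, 27 (0.537%) were past 20 points, all lower in depleted cells. As no share exceeds 97.5%, these exons could pass 20 points only by being lower. Where control inclusion was 50% to 75%, 104 of 403 (25.8%) were past 20 points, of which 67 were higher and 37 lower in depleted cells. At 25% to 50% the share was close, 24.9% of 277, but the direction was the other way, with 30 higher and 39 lower.

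Full switches were few. Inclusion was at least 50% in depleted cells and at most 10% in control cells in 4 exons, those of FAM188A, PITPNM2, PPP1R12A and ARHGAP44. The opposite, at most 50% in depleted and at least 90% in control cells, held in 2 exons, those of PPFIA1 and HHAT, an acyltransferase of Hedgehog proteins. FAM188A, a deubiquitinase gene, had 76.5% in depleted and 2.7% in control cells, while without PMA the values were 79.6% in depleted and 60.8% in control cells. PPP1R12A, the myosin phosphatase targeting subunit, had 70.1% in depleted and 8.4% in control cells, and ARHGAP44, a GTPase-activating protein, had 58.0% in depleted and 3.6% in control cells.

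PPFIA1, liprin-alpha-1, which organises focal adhesions and synapses, showed the largest difference of an annotated cassette exon. Its 30-nucleotide exon on chromosome 11 (70197100 to 70197129) had 11.7% in depleted and 96.0% in control cells with PMA, and 69.2% in depleted and 97.1% in control cells without PMA. The matching GENCODE transcripts are annotated to undergo nonsense-mediated decay.

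**Figure D2:**
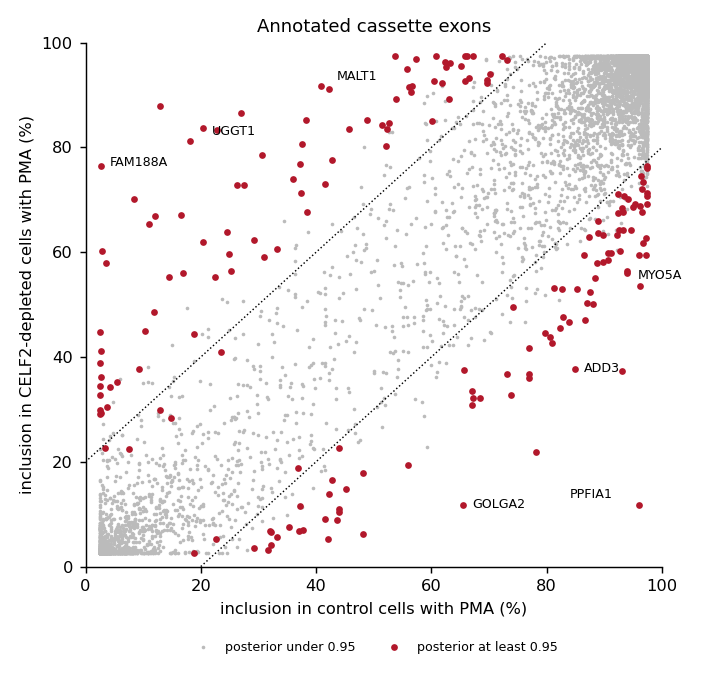
Inclusion of each annotated cassette exon in CELF2-depleted cells (vertical axis, percent) against control cells (horizontal axis, percent), both with PMA; points are exons, red where the posterior is at least 0.95, and the dotted lines mark a difference of 20 points. Of 13770 exons 175 are past 20 points with that posterior, 83 above the upper line and 92 below the lower one.

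Coding exons past 20 points kept the reading frame in 58.7% of the genes with higher inclusion in depleted cells (71 of 121) and in 56.0% of those with lower inclusion (79 of 141). The figure was 57.8% (231 of 400) among exons that moved by under 5 points with control inclusion of 10% to 90%, and 47.0% over all coding exons. The median length was 89 nucleotides for exons higher, 111.5 for those lower and 107 for the unmoved exons with control inclusion of 10% to 90%. Exons found only in transcripts annotated to undergo nonsense-mediated decay made up 5.81% of the exons higher, 11.9% of those lower and 11.9% of the unmoved ones.

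Short exons moved both ways. At lengths of 16 to 30 nucleotides 9 genes were higher and 6 lower by at least 20 points (7.28% of 206 genes), against 2.61% of 4216 genes at 61 to 120 nucleotides. Restricted to control inclusion of 10% to 90% the shares were 19.0% (8 of 42) and 13.5% (110 of 815), with no test of the difference. In the shortest class, 1 to 15 nucleotides, 0 genes were higher and 1 lower without that restriction (2.33% of 43 genes). Of 13 exons of at most 30 nucleotides that passed 20 points with a posterior of at least 0.95, 6 rose and 7 fell.

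Among the short exons that rose, that of DIAPH1, of 27 nucleotides in a formin which assembles actin filaments, had 80.6% in depleted and 37.6% in control cells. The 30-nucleotide exon of NCAM1, a neural cell adhesion molecule, had 45.0% in depleted and 10.4% in control cells. MARK3, a kinase of microtubule-associated proteins, had 36.2% in depleted and 2.7% in control cells, and PICALM, a clathrin adaptor, had 34.5% in depleted and 2.5% in control cells. Both of these exons were thus nearly absent from control transcripts. CLSTN1, calsyntenin 1, a cargo adaptor of kinesin, gained 2 exons, with 44.7% in depleted and 2.5% in control cells at 57 nucleotides and with 29.1% in depleted and 2.5% in control cells at 30 nucleotides.

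Among those that fell, SUPT5H, an elongation factor of RNA polymerase II, had 56.5% in depleted and 93.9% in control cells at an exon of 12 nucleotides, the shortest of the 13. OCRL, an inositol phosphatase of endosomes, had 11% in depleted and 43.9% in control cells at 24 nucleotides. PPP3CB, a catalytic subunit of calcineurin, the phosphatase through which T cell receptor signals reach NFAT, had 59.4% in depleted and 97.2% in control cells at 30 nucleotides. Without PMA the PPP3CB exon had 94.4% in depleted and 97.5% in control cells. RFFL, an E3 ubiquitin ligase, had 67.7% in depleted and 96.5% in control cells, and CACNB3, a calcium channel subunit, had 59.4% in depleted and 86.4% in control cells. These short exons were chosen by length after their values were seen.

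**Figure D3:**
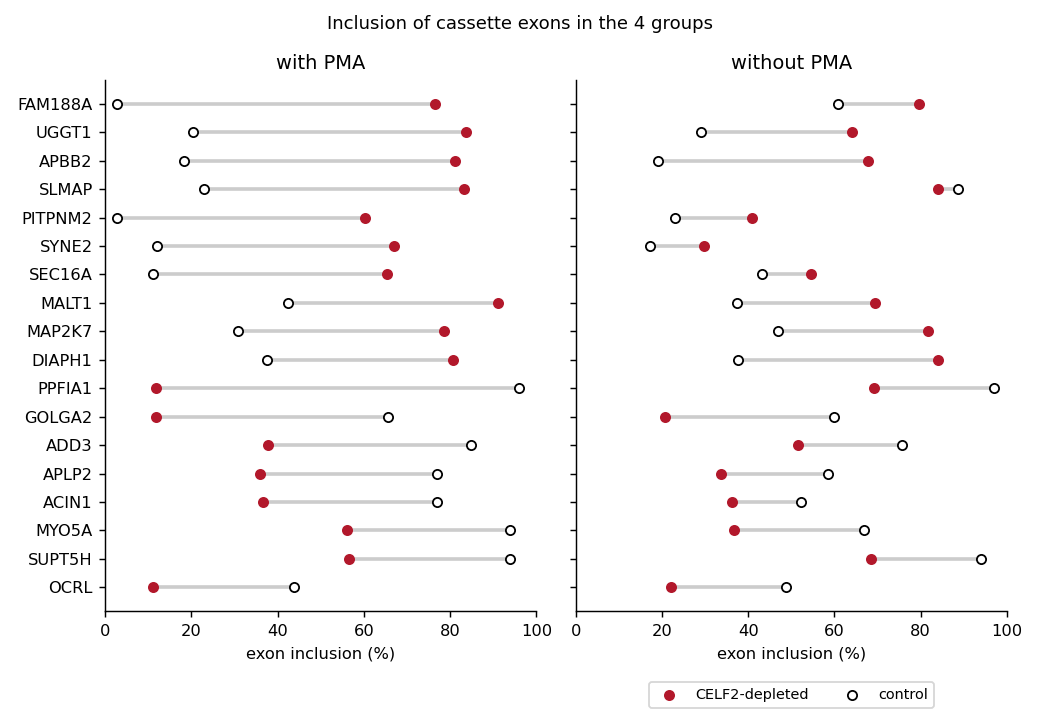
Inclusion (percent) of 18 cassette exons in the 4 groups, with PMA in the left panel and without PMA in the right panel; filled red points are CELF2-depleted and open points control cells, joined by a grey line, each the authors' value for 2 pooled libraries. The exons were picked after their values were seen. SLMAP has 83.3% in depleted and 22.8% in control cells with PMA, but 84.1% and 88.7% in the same order without PMA, while GOLGA2 lies lower in depleted cells in both panels.

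With 1 intron per gene, retained introns past 20 points were nearly balanced in direction. Retention was higher in depleted cells in 107 genes (2.3%) and lower in 92 (1.97%) of 4661. The intron taken was the 1 listed first by chromosome position, which need not be the first intron of the transcript. Over all introns more were higher, 227 against 155 lower of 382 past 20 points (3.87%). The direction differed by intron length. Counting 1 intron per gene in each class of length, retention was higher in 93 genes and lower in 38 for introns of up to 150 nucleotides, higher in 33 and lower in 62 from 151 to 1000 nucleotides, and higher in 11 and lower in 27 above 1000 nucleotides. Control retention moves with length too, with medians of 3.0%, 67.6% and 97.1% over the introns of the 3 classes, and its part in the split was not tested. Without PMA the counts were 52 higher and 20 lower, 36 higher and 27 lower, and 19 higher and 9 lower, so that in the 2 longer classes more genes were higher than lower there. Counting all introns with PMA that also had a posterior of at least 0.95, 97 rose and 23 fell in the shortest class, 23 rose and 40 fell in the middle class, and 3 rose and 14 fell in the longest.

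**Figure D4:**
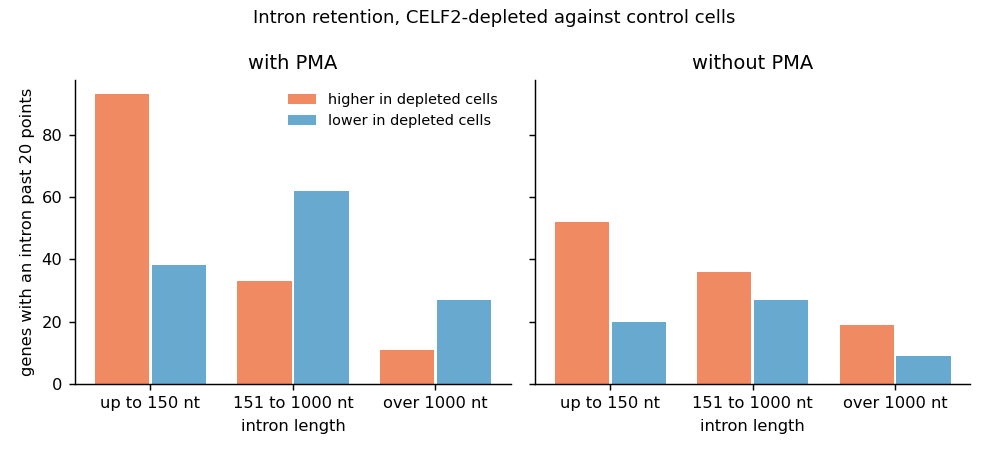
Number of genes whose intron listed first by chromosome position in a length class differed in retention by at least 20 points between CELF2-depleted and control cells. Retention was higher (orange) or lower (blue) in depleted cells, with PMA (left) and without PMA (right). With PMA 93 genes were higher and 38 lower at up to 150 nucleotides, against 33 higher and 62 lower at 151 to 1000 nucleotides.

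Of 9877 introns, 200 (2.02%) passed 20 points with a posterior of at least 0.95. The 123 that rose (1.25%) had a median length of 102 nucleotides and median retention of 60% in depleted and 24.2% in control cells. The 77 that fell (0.78%) had a median length of 442 nucleotides and median retention of 37.7% in depleted and 77.1% in control cells.

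The 93-nucleotide intron of NOXO1, the organiser subunit of NADPH oxidase 1, was retained at 93.1% in depleted and 2.9% in control cells, a difference of 90.2 points. A 139-nucleotide intron of TSC2, tuberin, which restrains mTORC1 by inactivating RHEB, had 87.7% in depleted and 23.5% in control cells. DGKZ, diacylglycerol kinase zeta, which removes the diacylglycerol that PMA mimics and so limits T cell receptor signals, had 62.2% in depleted and 6.2% in control cells at an intron of 93 nucleotides. Further rises were to 74.6% in depleted cells, against 12.7% in control cells, in THBS3, a thrombospondin, and to 82.3% against 27.4% in PNPLA7, a lysophospholipase. None of these 5 introns was listed in the table without PMA in the same form. In RALGPS2, an exchange factor for Ral, the retained form listed spans 51262 nucleotides, with 67.9% in depleted and 2.5% in control cells, a length at which continuous coverage by reads was not checked.

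Retention fell in KREMEN2, a receptor of Dickkopf proteins, to 20.8% in depleted cells, against 96.9% in control cells, at an intron of 114 nucleotides. In KLC3, a kinesin light chain, it was 37.7% in depleted and 95% in control cells, and without PMA 65.8% in depleted and 94.5% in control cells. KATNBL1, a katanin-like regulator of microtubules, had 10.8% in depleted and 66.7% in control cells, and the nucleolar protein gene NOL8 had 20.5% in depleted and 72.3% in control cells. A 395-nucleotide intron of PTS, an enzyme of tetrahydrobiopterin synthesis, had 8.1% in depleted and 59.6% in control cells with PMA, but 14.7% in depleted and 11.9% in control cells without PMA. FGFR1OP2 showed a like set of values at an intron of 2713 nucleotides, with 29.3% in depleted and 90.4% in control cells with PMA and 40.7% in depleted and 32.8% in control cells without PMA. In PTS and FGFR1OP2, as in SLMAP, the group that stood apart was that of control cells with PMA.

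Alternative splice sites gave the fewest large differences. For 3′ sites 19 genes (0.76%) used the longer exon form more and 12 (0.48%) less in depleted cells by at least 20 points, and 4 events of 3338 (0.12%) had a posterior of at least 0.95. PARP14, an ADP-ribosyltransferase, used a site that adds 159 nucleotides at 3.3% in depleted and 33.2% in control cells. ZMIZ1, a transcriptional coactivator, used one that adds 18 nucleotides at 14.1% in depleted and 45.3% in control cells, and RALGAPB, a subunit of a Ral GTPase-activating complex, one that adds 12 at 48.3% in depleted and 20.3% in control cells. Sites 3 nucleotides apart passed 20 points in 1.44% of 486 genes, close to the 1.29% of 1242 genes whose sites lie over 30 nucleotides apart.

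For 5′ sites 8 genes (0.469%) used the longer form more and 11 (0.645%) less, and 8 events of 1990 (0.402%) passed with the posterior. The largest was in SPHK2, a sphingosine kinase, whose longer form had 58.4% in depleted and 7.3% in control cells. MAP4K5, a kinase upstream of JNK, had 72.4% in depleted and 32.6% in control cells, and PLD2, phospholipase D2, 68.6% in depleted and 38.5% in control cells. In the other direction PCYT2, an enzyme of phosphatidylethanolamine synthesis, had 4.6% in depleted and 33.2% in control cells. BTAF1, an ATPase that removes TATA-binding protein from DNA, had 54.8% in depleted and 82.2% in control cells.

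In LSVs of 3 or more forms the value given is that of 1 junction of the LSV. A junction of ARHGEF3, an exchange factor for RhoA, had 96.4% in depleted and 12.7% in control cells, and 93.8% in depleted and 13.7% in control cells without PMA. RGS3, a regulator of G protein signalling, had 87.9% in depleted and 2.6% in control cells, SH2D3C, an adaptor with an SH2 domain, 96.6% in depleted and 21.6% in control cells, and MYO15B 84.2% in depleted and 14% in control cells. Falls were to 18.0% in depleted cells, against 88.8% in control cells, in NF1, the Ras GTPase-activating protein neurofibromin, and to 13.0% against 90.5% in MCTP1, a calcium-binding membrane protein. In EML6, a microtubule-associated protein, 1 junction had 78.2% in depleted and 7.2% in control cells and another of the same LSV 14.8% in depleted and 93.3% in control cells, which shows a switch between a pair of junctions.

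CELF2 itself had 16 LSVs with PMA, of which 4 differed by at least 20 points and 3 of these had a posterior of at least 0.95, while 0 of its 11 LSVs without PMA passed 20 points. Its junction from position 11371060 to 11372419 of chromosome 10 had 92.1% in depleted and 24.5% in control cells with PMA, and 92.9% in depleted and 91.0% in control cells without PMA. An 80-nucleotide coding exon of CELF2 (11308561 to 11308640), whose length is not a multiple of 3, had 89.3% in depleted and 53.9% in control cells with PMA, and 97.3% in depleted and 91.7% in control cells without PMA. As the hairpins act on CELF2 RNA, differences between its own forms cannot be told apart from unequal removal of those forms.

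Events selected by their size with PMA were set beside the same events without PMA. Of 3880 LSVs past 20 points with PMA, 3359 were also listed without PMA, and of these 2659 (79.2%) had the same sign, 695 (20.7%) passed 20 points the same way, 877 (26.1%) differed by under 5 points and 42 passed 20 points the opposite way. Choosing events by their size in 1 table makes them smaller on average in another, so these shares do not measure how PMA acts. For cassette exons, 140 of 152 were listed, with the same sign in 108 (77.1%), past 20 points the same way in 28 (20.0%) and the opposite way in 0. A search for events past 20 points in opposite directions with a posterior of at least 0.95 in both states gave 0. It covered events with the same junctions in both states, in genes with an official symbol that are not pseudogenes. Without the limits on posterior and gene, 4 of 1001 LSVs past 30 points with PMA passed 30 points the opposite way without PMA.

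Some events passed 30 points the same way in both states, and these were ranked by their size with PMA alone. The largest was in ARHGEF11, an exchange factor for RhoA. A junction there had 95.2% in depleted and 5.8% in control cells with PMA, and 97.1% in depleted and 3.7% in control cells without PMA. ARHGEF3, EML6 and MCTP1 were also among the 5 largest with PMA. Those large with PMA and under 5 points without were led by TMEM99, a junction of which had 7.5% in depleted and 97.5% in control cells with PMA, and 3.5% in depleted and 2.7% in control cells without PMA. LIMS1, the focal adhesion adaptor PINCH1, had 14.5% in depleted and 92.2% in control cells with PMA, and 2.5% in depleted and 5.4% in control cells without PMA, at a junction whose reads may be shared with near-identical LIMS genes. TLDC1 had 2.5% in depleted and 70.8% in control cells with PMA, and 2.5% in depleted and 6.9% in control cells without PMA. In all 3, control cells with PMA again stood apart from the other 3 groups.

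Gene lists were read by the share of genes with any LSV past 20 points, beside 21.6% of all genes, and by the share that also had a posterior of at least 0.95, beside 10.6%. Genes with more LSVs pass more often, from 7.86% of genes with 1 or 2 LSVs to 45.0% of those with 21 or more, and the lists hold genes with a median of 8 to 16 LSVs against 7 over all genes. The lists therefore cannot be compared with all genes directly. With the first LSV alone, between 0 and 4 genes of each list passed, 0% to 6.67% in 13 of the 14 lists beside 4.33% of all genes, and 12% (3 of 25) in the list of genes reported for CELF2 or for activated Jurkat cells, which was assembled from earlier work on the same cells and is not independent. All 14 lists were written with earlier results of these data known.

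**Figure D5:**
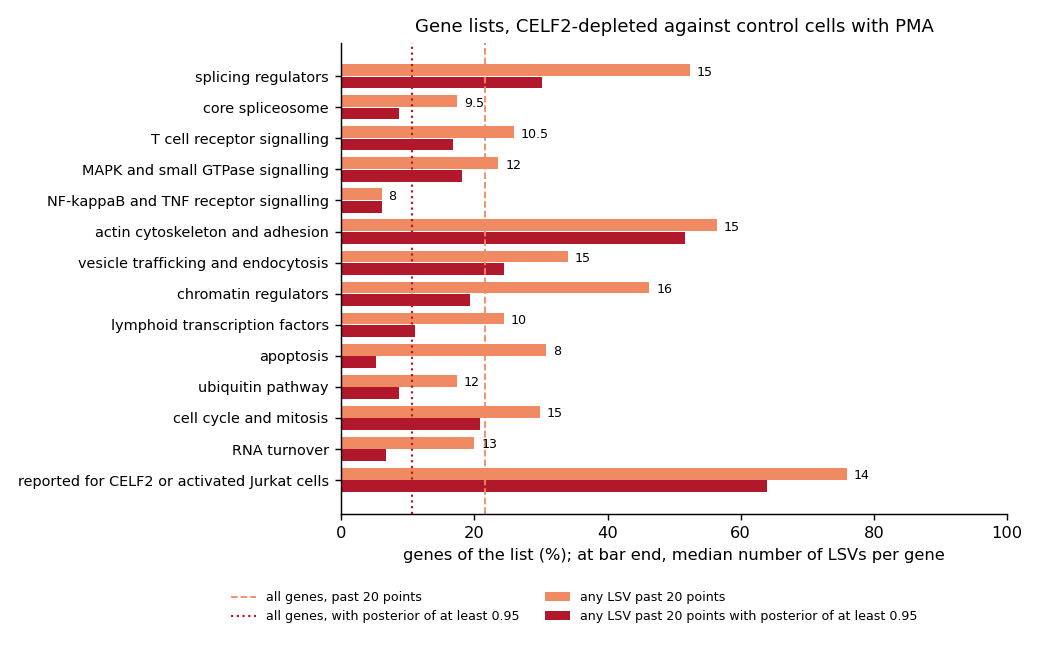
Percentage of the measured genes of 14 lists with any LSV that differed by at least 20 points between CELF2-depleted and control cells with PMA (orange) and with a posterior of at least 0.95 as well (red); the number at each bar is the list's median number of LSVs per gene, and the lines mark 21.6% and 10.6% of all genes. Actin cytoskeleton and adhesion reached 56.5% and 51.6%, NF-kappaB and TNF receptor signalling 6.06% on both.

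Actin cytoskeleton and adhesion had 35 of 62 genes past 20 points (56.5%), 28 past 30 points and 12 past 50 points. Over all genes these shares were 21.6%, 7.96% and 1.15%. The list had 32 genes (51.6%) at the posterior of 0.95 and a median of 15 LSVs per gene, against 7 over all genes. With the first LSV alone 3 of 62 (4.84%) passed 20 points, beside 4.33% of all genes. MYL6, a myosin light chain, had a junction at 75.9% in depleted and 12.4% in control cells. FNBP1, an F-BAR protein that bends membranes and recruits actin regulators, had 15.4% in depleted and 81.9% in control cells. PPFIA1 and LIMS1, given above, are the other leading members.

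Splicing regulators had 33 of 63 genes past 20 points (52.4%), of which 19 (30.2%) had the posterior of 0.95, with a median of 15 LSVs per gene. MBNL1, a regulator that often acts on the same exons as CELF proteins, had a junction at 44.6% in depleted and 92.6% in control cells. TIA1, which promotes the use of weak 5′ splice sites, retained an intron of 435 nucleotides at 41.1% in depleted and 84.6% in control cells, beside 61.8% in depleted and 62.8% in control cells without PMA. In LUC7L, a component related to the U1 particle, the spliced junction had 21.3% in depleted and 72.6% in control cells, so that its intron was retained more in depleted cells. The core spliceosome had 8 of 46 (17.4%), led by SNRPA1, a protein of the U2 particle, whose intron was spliced at 86.2% in depleted and 42.8% in control cells, and by SF3B3, with a junction at 48.8% in depleted and 84.5% in control cells.

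T cell receptor signalling had 14 of 54 genes past 20 points (25.9%) and 9 (16.7%) at the posterior. FYN, a Src-family kinase of the receptor, had a junction at 75.2% in depleted and 14% in control cells, and 80.6% in depleted and 24.0% in control cells without PMA. MALT1, the paracaspase that carries antigen receptor signals to NF-kappaB, included its 33-nucleotide exon at 91.2% in depleted and 42.3% in control cells, and at 69.5% in depleted and 37.4% in control cells without PMA. PTPN6, the phosphatase SHP-1, had a junction at 38.8% in depleted and 87.3% in control cells. DGKZ, with the intron given above, was the remaining leading member.

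MAPK and small GTPase signalling had 13 of 55 genes past 20 points (23.6%) and 10 (18.2%) at the posterior, led by ARHGEF11, ARHGEF3 and NF1. GIT2, a scaffold of ARF and Rac signalling, had a junction at 80.6% in depleted and 26.7% in control cells. MAP2K7, the kinase that activates JNK, included its 48-nucleotide exon at 78.5% in depleted and 30.7% in control cells, and at 81.8% in depleted and 47.0% in control cells without PMA. In NF-kappaB and TNF receptor signalling 2 of 33 genes passed 20 points (6.06%). These were NFKB2, the precursor of p52, with a spliced junction at 44.6% in depleted and 91.9% in control cells, and TRAF3, an adaptor of TNF receptors, with a junction at 97.4% in depleted and 61.6% in control cells.

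Chromatin regulators had 31 of 67 genes past 20 points (46.3%) and 13 (19.4%) at the posterior. Their median was 16 LSVs per gene, against 7 over all genes. With the first LSV alone 3 of 67 (4.48%) passed 20 points, beside 4.33% of all genes. The list had 0 genes past 50 points, beside 1.15% of all genes, a share too small to be told apart from 0 in 67 genes. KDM6A, a histone H3 lysine demethylase, had a junction at 29% in depleted and 72.7% in control cells, and DNMT3A, a DNA methyltransferase, one at 71.7% in depleted and 33.3% in control cells. Vesicle trafficking and endocytosis had 18 of 53 (34.0%) and 13 (24.5%) at the posterior. There BIN1, a membrane-bending protein, had a junction at 83.0% in depleted and 6.6% in control cells, and SEC16A, which organises the exit sites of the endoplasmic reticulum, included a 60-nucleotide exon at 65.4% in depleted and 11.1% in control cells. Cell cycle and mitosis had 20 of 67 (29.9%) and 14 (20.9%) at the posterior, with CIT, citron kinase, at 55.9% in depleted and 13.1% in control cells.

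Lymphoid transcription factors had 11 of 45 genes past 20 points (24.4%) and 5 (11.1%) at the posterior. FOXP1, a forkhead factor that keeps T cells quiescent, had a junction at 62.4% in depleted and 7.0% in control cells with PMA, and 7.7% in depleted and 3.7% in control cells without PMA, so that depleted cells with PMA stood apart. RXRA, the retinoid X receptor, had 96.7% in depleted and 36.1% in control cells. IRF7, an interferon regulatory factor, had 35.4% in depleted and 85.7% in control cells, and MEF2A 40.2% in depleted and 87.1% in control cells. Apoptosis had 12 of 39 (30.8%) past 20 points, 1 past 30 points (2.56%, beside 7.96% of all genes) and 2 (5.13%) at the posterior. With the first LSV alone 1 of 39 (2.56%) passed 20 points, beside 4.33% of all genes. Counts this small do not set the list apart from all genes. The 2 at the posterior were CASP10, with a junction at 68.6% in depleted and 28.7% in control cells, and BCL2L1, with 27.9% in depleted and 2.7% in control cells.

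RNA turnover had 9 of 45 genes past 20 points (20.0%) and 3 (6.67%) at the posterior, led by TNRC6B, a scaffold of microRNA silencing, with a junction at 20.4% in depleted and 69.1% in control cells. UPF3A, a factor of nonsense-mediated decay, had 16.9% in depleted and 55.9% in control cells. The ubiquitin pathway had 12 of 69 (17.4%) and 6 (8.7%) at the posterior, with FBXW7, a substrate receptor that marks cyclin E, at 26.3% in depleted and 81.9% in control cells. The genes reported for CELF2 or for activated Jurkat cells had 19 of 25 past 20 points (76.0%) and 16 (64.0%) at the posterior, with BIN1, CELF2, FYN and SEC16A as the leading members.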

How the data were processed

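Strand-specific libraries of polyadenylated RNA were made with TruSeq chemistry, per the labels' protocols. STAR 2.5.1b and the build hg19 are named, with no role, in the submitters' processing notes. The deposited tables have the columns of MAJIQ and VOILA, per the file headers, with the version, the annotation and any filter on reads absent from the sources used here. Each deposited value is other than a count: an expected share per junction in a group of 2 pooled libraries, between 2.5% and 97.5%, the authors' shrunken expected change, and the posterior probability that a share changed by 20 points or more. Read depth is unknown, and 0 columns of per-sample values were left unused.

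From these, the difference of the 2 shares, depleted minus control, was taken with Python 3.11.15, pandas 2.3.3 and numpy 2.4.6. Whether an LSV leaves or enters an exon was read from its type, which follows transcription. Cassette inclusion is the mean over the LSVs that showed an exon. Event building was tested on simulated tables. LSVs listed under several gene IDs with the same junctions (1137) were kept, and 61613 LSVs hold a de novo junction by the authors' flag. GENCODE 29 gave a match for 19046 of 30936 exon LSVs of 2 junctions, and 10912 of 11039 gene IDs were found in it.

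Named genes had a size of at least 20 points and a posterior of at least 0.95. They were the 6 largest rises and falls per class, up to 4 genes per list, and CELF2. Added to these were the 5 events largest with PMA and under 5 points without. The 5 largest with PMA among those that passed 30 points the same way in both states were also named. CRYBG3 and QTRTD1 only mark the 20-point threshold and are outside this rule, and other genes outside the rule are said to be chosen after their values were seen. Members, lists and rules were chosen with earlier results of these data known. Statistics of FAM188A, PPP1R12A, ARHGAP44, HHAT and PPFIA1 as switches, and of MAP2K7, were picked after their values were seen. Some items that the rule would name are not reported here.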

Additional observations from a re-analysis of the deposited data

How the results depend on the processing

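Of 70 values recomputed under 12 alternatives, 55 stayed within 1.5 times a count or within the binomial interval of a percentage, and 15 moved. Calling by the authors' posterior of at least 0.95 in place of size left 199 genes, 68 cassette exons, 111 introns, 4 alternative 3′ sites, 5 alternative 5′ sites and 290 genes with LSVs of 3 or more forms. Counting any LSV of a gene gave 2383 genes past 20 points, 879 past 30 and 127 past 50. All events of a class gave 382 introns and 2500 LSVs of 3 or more forms. With LSVs that hold a de novo junction left out, 12 genes passed 50 points, 310 genes with LSVs of 3 or more forms passed 20 points and 0 introns did, since the authors' flag covers the intron LSVs that passed. Cassette exons seen from 1 side or both gave 234 genes. The share of cassette exons past 20 points with higher inclusion was 35.9% to 41.6% over its alternatives, and that of introns with higher retention 52.2% to 59.4%.

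No paired analysis was possible because the deposited shares pool both libraries of a group and carry no replicate number, and leaving out a library could not be run for the same reason. The 2 states were quantified separately. Differences of 20 to 30 points mostly lack the authors' posterior of 0.95 and rest on an unknown number of reads.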

Other observations

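Some genes held several LSVs with large differences, counted after their values were seen, and most of these genes have many LSVs. Over all LSVs, 1145 of 91729 (1.25%) differed by at least 30 points with a posterior of at least 0.95 between depleted and control cells with PMA. THBS3 had 6 such LSVs of 19. FANCA, a Fanconi anaemia protein of DNA repair, had 5 of 46, CYFIP2, a subunit of the WAVE complex that drives actin branching, 5 of 33, and LRCH4 5 of 32. FAM193B had 5 of 25, STRADA, a partner of the kinase LKB1, 5 of 16, and SCNN1D 5 of 11. LSVs of a gene can share junctions and are not independent. Of all genes, 1405 had 1 LSV past 20 points, 676 had 2 and 185 had 3.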
